A study of Mus musculus with 18 samples.

Results

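The Hedgehog co-receptors and transducers examined here were 8 genes of the Hedgehog pathway: Boc, Cdon, Gas1, Smo, Gli2, Gli3, Sufu and Disp1. They were chosen by name for their roles in the pathway, with earlier results of these data known, and are 8 of the 23420 genes listed in each of 3 expression tables. All 8 had a normalised read count of at least 10 in all 18 samples, so that each was tested in each table. The data were RNA-seq profiles of whole lungs of mouse embryos at 14.5 dpc (days post coitus), an age of active airway branching. A floxed gene was removed with ShhCre in each of 3 lines: Rptor, which encodes a core subunit of mTOR complex 1 (mTORC1), Tfam, which encodes a factor that packages and transcribes mitochondrial DNA, or Cox10, which encodes an enzyme needed to build cytochrome c oxidase. Deficient lungs had the genotype Rptorf/f; ShhCre/+, Tfamf/f; ShhCre/+ or Cox10f/f; ShhCre/+, and the controls of each line were Rptorf/+; ShhCre/+, Tfamf/+; ShhCre/+ or Cox10f/+; ShhCre/+. There were 3 samples in each of these 6 groups. ShhCre is a knock-in that places Cre in the Shh locus, so that control and deficient lungs alike kept a single working Shh allele. It is active in the lung epithelium, whereas RNA came from whole lungs with their mesenchyme, vessels and mesothelium. The labels do not say whether each sample was a single embryo, and p-values measure the spread between these samples.

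In the embryonic lung Sonic hedgehog (Shh) is made by the epithelium and received mainly by the mesenchyme around it. Ligand leaves the producing cell with the help of Disp1 and the secreted Scube proteins and binds Ptch1 on the receiving cell together with Boc, Cdon or Gas1. Ptch1 then no longer holds back Smo, Sufu releases the Gli proteins, and target genes are transcribed, among them Gli1, Hhip and Ptch1 itself. Boc, Cdon and Gas1 are known in several tissues to be repressed by the pathway, which is why their change is set here beside that of Ptch1.

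Summed normalised read counts were alike between samples, from 27727200 to 29611100. The targeted genes themselves, with log2 fold changes of -0.066 for Rptor, -0.12 for Tfam and -0.0055 for Cox10 in their own lines, did not pass the threshold, and these whole-lung values do not test the labels. The labelled tissue was checked by its markers: in every group Nkx2-1, a lung epithelial factor, had a mean of at least 2541 and Tbx4, a lung mesenchymal factor, a mean of at least 6916, while 3 thymus and thyroid markers together summed to at most 28.8. Markers of heart muscle (Myh6, Nppa and Tnnt2) were present and uneven between samples, with sums of 327 to 1449 in control and 460.5 to 1138 in deficient samples of the Rptor line, 1995 to 5131 in control and 3706 to 10394 in deficient samples of the Tfam line and 213 to 3285 in control and 255 to 3382 in deficient samples of the Cox10 line. Of these markers Nppa passed in the Tfam line, with a log2 fold change of 2.29 ± 0.23 (SE; adjusted p = 0.000273, limma), and the part of heart RNA in the results was not tested.

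The co-receptors rose in Rptor-deficient lungs. Gas1, a membrane-anchored co-receptor (chr13:60174405-60177365, minus strand, mm10), increased most, followed by Cdon (chr9:35421128-35507652, plus strand) and Boc (chr16:44485049-44558897, minus strand), related receptors with immunoglobulin and fibronectin repeats. Gas1 had normalised read counts of 1764, 1626 and 1927 in the 3 control samples and 3629, 2892 and 3137 in the 3 deficient samples of the Rptor line. The groups did not overlap, and the lowest deficient value stood well above the highest control value. Its log2 fold change was 0.86 ± 0.094 (SE; adjusted p = 0.000439, limma), an increase of 81.6% in the mean. Boc had 3297, 3633 and 3852 in the 3 control samples and 5669.8, 5255 and 5591 in the 3 deficient samples, again without overlap. The 3 deficient values of Boc lay close together, and its log2 fold change was 0.62 ± 0.067 (SE; adjusted p = 0.000424, limma). Cdon had 1426, 1419 and 1611 in the 3 control samples and 2703, 2046 and 2214 in the 3 deficient samples. Deficient replicate 1 was the highest for Cdon as it was for Gas1, the groups did not overlap, and the log2 fold change was 0.64 ± 0.10 (SE; adjusted p = 0.00245, limma). In a whole lung, fewer cells of a type and less RNA per cell cannot be told apart, and the same holds for more cells and more RNA. The single exon of Gas1 overlaps a long non-coding RNA gene on the opposite strand (Gm48488), and whether reads were counted by strand is not given in the sources used here, so a part of the Gas1 reads could belong to it.

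The promoter of Gas1 is shown because Gas1 moved most, and that of Gli2 because it was the member promoter in which letters of the Gli binding site were found. The sequences are the 250 bases before the RefSeq start on GRCm38.p6, and capitals mark the matched letters, CCAAT in Gas1 and GGGTGGT, the reverse complement of ACCACCC, in Gli2.
Gas1 promoter (chr13:60177536-60177785, minus strand): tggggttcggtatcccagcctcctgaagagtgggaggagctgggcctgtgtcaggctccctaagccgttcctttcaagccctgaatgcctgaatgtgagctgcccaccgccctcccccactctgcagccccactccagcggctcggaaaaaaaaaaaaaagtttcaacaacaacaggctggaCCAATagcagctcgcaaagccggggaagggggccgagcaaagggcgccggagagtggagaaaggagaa
Gli2 promoter (chr1:119053620-119053869, minus strand): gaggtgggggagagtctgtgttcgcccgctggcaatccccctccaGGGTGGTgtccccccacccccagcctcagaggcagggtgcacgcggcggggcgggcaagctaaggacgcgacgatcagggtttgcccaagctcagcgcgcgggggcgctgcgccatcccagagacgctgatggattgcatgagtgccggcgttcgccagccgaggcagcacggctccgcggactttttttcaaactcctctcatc
RefSeq promoter entries matched 7 of the 8 members, Boc being the exception. Both strands were searched in windows of 250 bases before and 50 bases after the start, and the motifs did not overlap other than ACCACCC, which lies within GACCACCCA. The Gli consensus GACCACCCA was in no member window and in 0.253% of 32851 promoters, the shorter ACCACCC was in that of Gli2 and in 4.61% of promoters, and CCAAT was in those of Gas1, Cdon and Sufu and in 37.4%. TATAAA was in no member window and in 13.6% of promoters. The upstream part of the Gas1 window had a GC content of 58.8% with 10 CpG, and that of Gli2 67.2% with 22 CpG, against medians of 52.4% and 6 CpG over all promoters. These matches are of letters and were not tested as binding sites.

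**Figure D1:**
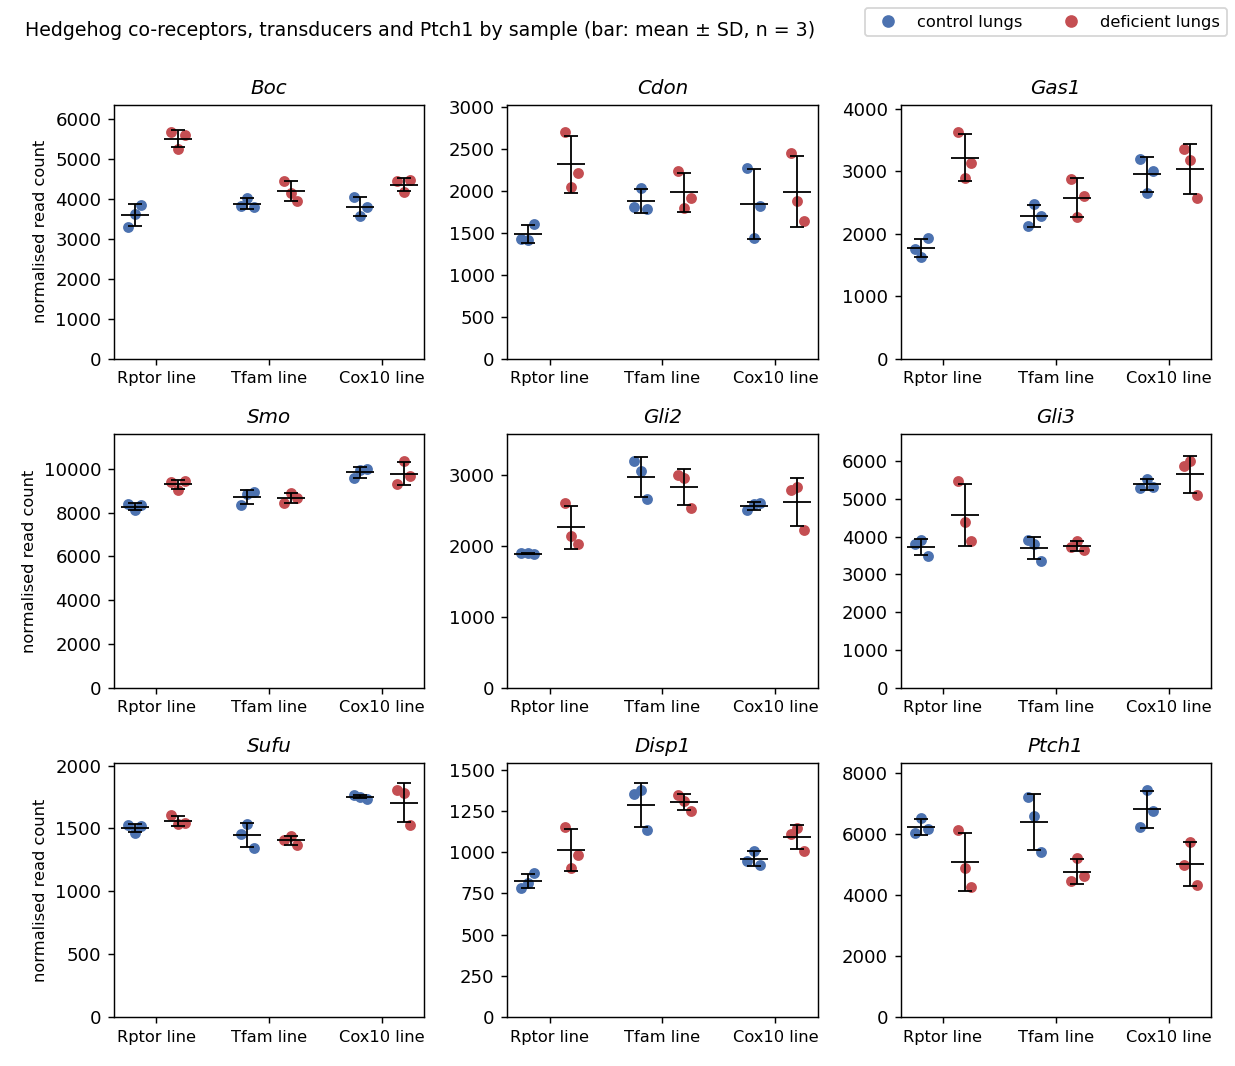
Normalised read counts (vertical axes, from 0) of the 8 members and of Ptch1 in each control (blue) and deficient (red) sample of the 3 lines (horizontal axis), with bars for the mean ± SD (n = 3). Boc, Cdon and Gas1 are higher in all 3 Rptor-deficient samples than in any Rptor control, whereas Ptch1 is lower on average in the deficient lungs of each line.

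Smo, the membrane protein that passes the signal on from Ptch1 (chr6:29735503-29761365, plus strand), changed little. In samples of the Rptor line its normalised read counts were 8394, 8114 and 8328 in the 3 control samples and 9393, 9047 and 9425 in the 3 deficient samples. The spread within groups was small and the groups did not overlap, and the log2 fold change of 0.17 ± 0.047 (SE; adjusted p = 0.0259, limma) passed the threshold. When samples were left out in turn, 4 of 6 fits (each control replicate or deficient replicate 3) no longer called the rise of Smo, with limma adjusted p up to 0.080.

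Gli2, the main activator among the Gli transcription factors (chr1:118834132-119053619, minus strand), had 1906, 1896 and 1883 in the 3 control samples and 2615, 2143 and 2033 in the 3 deficient samples of the Rptor line. The controls were nearly equal, all deficient values were higher, and deficient replicate 1 was the highest. The log2 fold change of 0.25 ± 0.090 (SE; adjusted p = 0.0629, limma) did not pass the threshold, but did with the replicate numbers as a block (limma adjusted p = 0.0367). Gli3, which acts mostly as the repressor of the pathway (chr13:15463235-15730026, plus strand), had 3809.5, 3900.3 and 3487 in the 3 control samples and 5480.2, 4376 and 3884 in the 3 deficient samples. The lowest deficient value lay between control values, so that the groups overlapped. Its log2 fold change was 0.28 ± 0.11 (SE; adjusted p = 0.0872, limma), and with the block the limma adjusted p was 0.0263. An exon of Gli3 overlaps Gm6556 on the opposite strand, with the same limit on its reads as for Gas1. Both values were smaller without deficient replicate 1, where the log2 fold changes were 0.14 for Gli2 (limma adjusted p = 0.0768) and 0.15 for Gli3 (limma adjusted p = 0.146). Over the 6 fits that left out a sample the adjusted p went up to 0.142 and 0.226 in limma. Without deficient replicate 3 alone among them both genes passed without the block, with limma adjusted p of 0.0319 for Gli2 and 0.0235 for Gli3.

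Sufu, the cytoplasmic inhibitor that binds Gli proteins (chr19:46396896-46488804, plus strand), had 1526, 1463 and 1519 in the 3 control samples and 1604, 1532 and 1539.6 in the 3 deficient samples of the Rptor line. All deficient values were above the controls by a narrow margin, and its log2 fold change of 0.053 ± 0.056 (SE; adjusted p = 0.496, limma) did not pass the threshold (95% interval -0.075 to 0.18). Disp1, which releases lipid-modified ligand from the cells that make it (chr1:183086266-183221522, minus strand), had 786, 815 and 871 in the 3 control samples and 1153, 906 and 986 in the 3 deficient samples. The groups did not overlap and the log2 fold change was 0.29 ± 0.097 (SE; adjusted p = 0.0441, limma). The call for Disp1 was close to the threshold: it was lost in 5 of the 6 fits that left out a sample, all but the one without deficient replicate 2, with limma adjusted p up to 0.13.

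In all, 5 of the 8 members passed the threshold in the Rptor line (adjusted p below 0.05), each of them higher in deficient lungs: Gas1, Cdon, Boc, Disp1 and Smo. Of all 14940 genes tested, 34.8% passed, 16.6% higher and 18.2% lower. Without control replicate 1, 2 or 3 the number was 3. With the replicate block 7 passed, Gli2 and Gli3 in addition, against 38.6% of genes. Deficient and control values did not overlap for 7 of the 8 members, all higher, against 24.3% of all genes. The median log2 fold change was 0.29 over the 8 members and 0.64 over the 3 co-receptors, against 0.0083 over all genes. Ordered by change, Gas1 stood above 95.4% of genes, Cdon above 91.6% and Boc above 91.2%. The other 5 members stood lower, from 55.8% for Sufu to 78.1% for Disp1, and Ptch1 stood above 15.8% of genes.

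**Figure D2:**
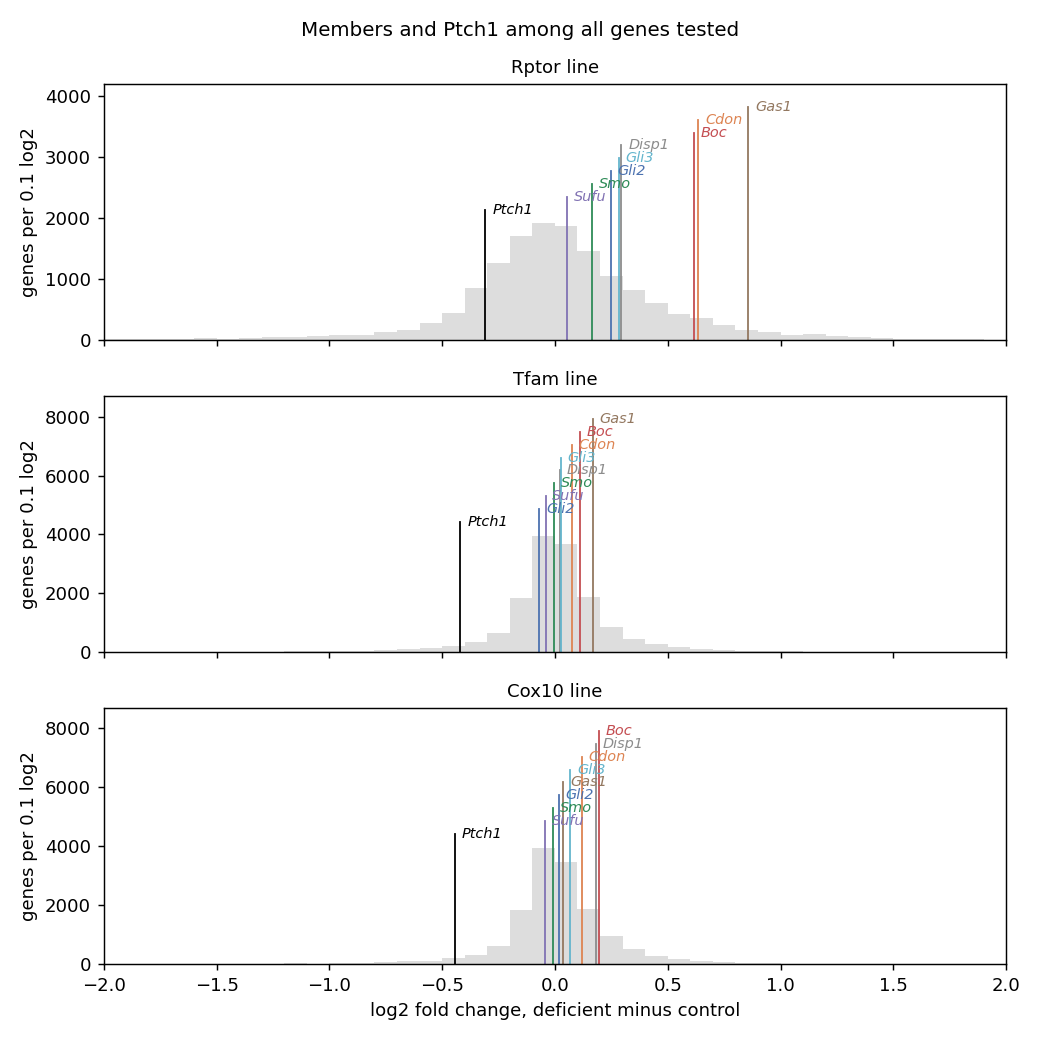
Number of genes (vertical axis) in bins of 0.1 of the log2 fold change between deficient and control lungs (horizontal axis) for each line, with a line for each member and for Ptch1. Genes with a change beyond 2 in either direction are not drawn. In the Rptor line Boc, Cdon and Gas1 lie in the upper tail, above 91.2% to 95.4% of genes. In the other lines the members lie nearer 0 with Ptch1 to their left. They stand above 30.1% (Gli2) to 83.6% (Gas1) of genes in the Tfam line and above 37.2% (Sufu) to 84.9% (Boc) in the Cox10 line.

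No member passed the threshold in limma in the 2 lines with mitochondrial deletions. In the Tfam line 0 of 8 passed in limma at an adjusted p below 0.05 and 0 at an unadjusted p below 0.05, where 4.66% of all 15053 genes passed at the adjusted and 17.4% at the unadjusted threshold. Gas1 had 2121, 2472 and 2279.7 in the 3 control samples and 2882, 2264 and 2599 in the 3 deficient samples. The 2 highest values were of deficient lungs, but the groups overlapped, and the log2 fold change was 0.17 ± 0.089 (SE; adjusted p = 0.367, limma). Boc had 3818, 4033 and 3785 in the 3 control samples and 4458, 4152 and 3954 in the 3 deficient samples, with a log2 fold change of 0.11 ± 0.061 (SE; adjusted p = 0.395, limma). Its lowest deficient value lay below the highest control value. Cdon had 1806, 2042 and 1789 in the 3 control samples and 2245, 1793 and 1921 in the 3 deficient samples, and its log2 fold change was 0.076 ± 0.087 (SE; adjusted p = 0.717, limma). The other 5 members had log2 fold changes from -0.070 for Gli2 to 0.027 for Gli3, with Smo at -0.0043, Sufu at -0.041 and Disp1 at 0.024. For none of the 8 were the groups apart, against 22.8% of all genes.

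In the Cox10 line 0 of 8 members passed in limma, where 0.475% of all 14937 genes did, and 2 (Boc and Disp1) had an unadjusted p below 0.05, as did 13% of genes. Boc had 4049, 3569 and 3798 in the 3 control samples and 4443, 4164 and 4462 in the 3 deficient samples. All deficient values were above all control values, the only such case among the 8 in this line (higher without overlap for 10.6% of all genes), and the log2 fold change was 0.20 ± 0.059 (SE; adjusted p = 0.26, limma). Disp1 had 949.8, 1011 and 920.4 in the 3 control samples and 1113, 1149 and 1010.3 in the 3 deficient samples, with a log2 fold change of 0.18 ± 0.070 (SE; adjusted p = 0.353, limma). Its lowest deficient value fell just under the highest control value. Cdon varied widely among the controls, with 2273, 1436 and 1819.9 in the 3 control samples and 2459.9, 1882 and 1641 in the 3 deficient samples, and its log2 fold change of 0.12 ± 0.19 (SE; adjusted p = 0.801, limma) had a 95% interval of -0.32 to 0.55. Gas1 had 3194, 2652 and 3010.1 in the 3 control samples and 3351, 3187 and 2577 in the 3 deficient samples, a log2 fold change of 0.037 ± 0.11 (SE; adjusted p = 0.898, limma). The groups overlapped for Gas1 as for Cdon. Gli3, Gli2, Smo and Sufu had log2 fold changes of 0.069, 0.018, -0.0094 and -0.043.

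To ask whether a member moved by different amounts in the lines, the difference between the effects was tested in a fit of all 18 samples. For Gas1 the effect of Rptor deletion exceeded that of Tfam deletion by 0.69 ± 0.16 (SE; adjusted p = 0.0105, limma) on the log2 scale, and that of Cox10 deletion by 0.82 ± 0.16 (SE; adjusted p = 0.00372, limma). For Boc the excess was 0.51 ± 0.091 (SE; adjusted p = 0.00205, limma) over Tfam deletion and 0.42 ± 0.091 (SE; adjusted p = 0.00841, limma) over Cox10 deletion. These 2 members were the ones that passed in both contrasts, where 11.2% and 7.48% of 14550 genes passed, and both kept these calls in each fit that left out a sample. For Cdon the difference was 0.56 ± 0.22 (SE; adjusted p = 0.104, limma) against the Tfam line, with a 95% interval 0.10 to 1.02, and 0.52 ± 0.22 (SE; adjusted p = 0.161, limma) against the Cox10 line, with a 95% interval 0.059 to 0.98. Neither passed without a block, and with the replicate block in all lines the former did (limma adjusted p = 0.0368). The intervals leave room for values as large as those of Gas1. The differences of the other 5 members lay between 0.094 (Sufu) and 0.32 (Gli2) against the Tfam line, and between 0.096 (Sufu) and 0.23 (Gli2) against the Cox10 line, and did not pass. Between the Tfam and Cox10 lines 0 members passed in limma, 0 had an unadjusted p below 0.05, and 0.055% of genes passed, with 4.56% at the unadjusted threshold. The mean effect over the 3 lines passed for 4 members, where 37.1% of genes did: Gas1 at 0.35 ± 0.064 (SE; adjusted p = 0.000421, limma), Boc at 0.31 ± 0.037 (SE; adjusted p = 7.86e-06, limma), Cdon at 0.28 ± 0.089 (SE; adjusted p = 0.0218, limma) and Disp1 at 0.17 ± 0.051 (SE; adjusted p = 0.0168, limma). As the Rptor line supplied most of the rise of Gas1, Boc and Cdon, their mean effect does not describe each line. For the other 4 the mean effects were 0.13 for Gli3, 0.065 for Gli2, 0.051 for Smo and -0.011 for Sufu.

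Ptch1 (chr13:63508328-63573598, minus strand), the receptor whose transcription reads out the pathway, went the other way. In the Rptor line it had 6022, 6546 and 6160.1 in the 3 control samples and 6135, 4879 and 4277 in the 3 deficient samples. Deficient replicate 1, which had the highest deficient value of all members but Smo, lay within the control range of Ptch1 and the other 2 deficient samples lay below it. The log2 fold change was -0.31 ± 0.12 (SE; adjusted p = 0.0685, limma), and with the replicate block the limma adjusted p was 0.0427. Without deficient replicate 1 it was -0.45 (limma adjusted p = 0.00164), and without deficient replicate 3 -0.19 (limma adjusted p = 0.176), the ends of the range over the 6 such fits. In the Tfam line Ptch1 had 7234, 6591 and 5421 in the 3 control samples and 4470.2, 5232 and 4621 in the 3 deficient samples, and in the Cox10 line 6245, 7435 and 6759.7 in the 3 control samples and 4989, 5757 and 4334 in the 3 deficient samples. In both the groups did not overlap. With -0.42 ± 0.099 (SE; adjusted p = 0.0376, limma) on the log2 scale its change passed in the former, and with -0.44 ± 0.11 (SE; adjusted p = 0.162, limma) it did not pass in the latter. The fall in the Tfam line was no longer past the threshold without control replicate 1 or 2 or deficient replicate 1 or 3, with limma adjusted p up to 0.157. Over the 3 lines Ptch1 fell by 0.39 ± 0.073 (SE; adjusted p = 0.000515, limma). The fall of Ptch1 in the Rptor line differed from that in the Tfam line by 0.11 ± 0.18 (SE; adjusted p = 0.729, limma) and from that in the Cox10 line by 0.14 ± 0.18 (SE; adjusted p = 0.698, limma), and neither difference passed.

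**Figure D3:**
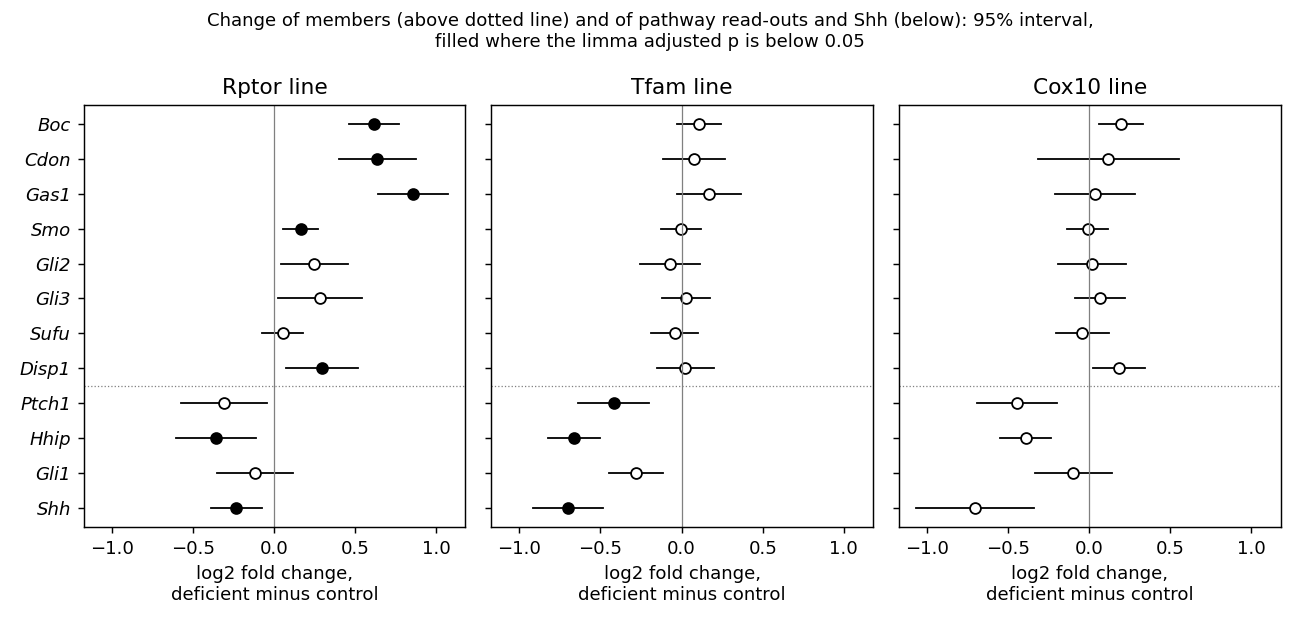
Log2 fold change between deficient and control lungs (horizontal axis) with its 95% interval for the 8 members, above the dotted line, and for Ptch1, Hhip, Gli1 and Shh, below it, in the 3 lines. Filled points passed the limma threshold (adjusted p below 0.05). The co-receptors lie to the right of 0 in the Rptor line, and the 4 genes below the dotted line lie to the left in all 3 lines.

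Relative to Ptch1 in the same sample, a ratio that does not depend on the scaling of the libraries, each member was higher in deficient lungs of every line. The ratio of Gas1 to Ptch1 was 0.285 ± 0.0329 in Rptor controls and 0.639 ± 0.0817 in Rptor-deficient lungs, 0.363 ± 0.0645 and 0.547 ± 0.107 in the Tfam line, and 0.438 ± 0.0777 and 0.607 ± 0.0600 in the Cox10 line (SD, n = 3 each). That of Boc rose from 0.576 ± 0.0430 to 1.10 ± 0.193 in the Rptor line, and stood at 0.613 ± 0.0852 and 0.882 ± 0.104 in the Tfam line and 0.563 ± 0.0842 and 0.881 ± 0.153 in the Cox10 line (SD, n = 3 each). Averaged over the lines the log2 ratio was higher by 0.74 for Gas1, 0.70 for Boc, 0.67 for Cdon, 0.56 for Disp1, 0.52 for Gli3, 0.46 for Gli2, 0.44 for Smo and 0.38 for Sufu. The exact permutation test over samples within lines gave p = 0.00025, the smallest that its 8000 arrangements can give, for 7 members and p = 0.001 for Cdon. The fall of Ptch1 enters this test too, and Sufu, whose own mean effect was -0.011, was among the 7. The share of all genes at this p was not computed, so these p-values do not single out the members. Within a line, where 3 samples against 3 cannot go below 0.1 in this test, all p were 0.1 except 0.2 for Cdon in the Cox10 line. All 8 members passed the limma fit of the ratio over the 3 lines (adjusted p below 0.05), but so did 84.6% of all genes, 82.9% higher, since the fall of Ptch1 enters each ratio. Within the Rptor, Tfam and Cox10 lines 7, 7 and 8 members passed it, against 28.5%, 55.7% and 59.8% of genes, and single samples moved these numbers to as few as 3, 0 and 0. With the replicate block 6, 5 and 8 passed, against 22%, 37.5% and 75.6% of genes. Setting all members against the same Ptch1 value shifts them alike, so that their order is that of the mean effects above. In Cox10-deficient lungs the order was another, with Boc at 0.64, Disp1 at 0.63, Cdon at 0.56 and Gli3 at 0.51 above Gas1 at 0.48 on the log2 scale.

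Markers of the lung's tissues moved with the co-receptors. Among Rptor lungs 8 of 12 mesenchyme markers rose and 0 fell, and their summed normalised read counts were 200729 to 231800.0 in control and 400417 to 431187 in deficient samples, while 9 of 10 epithelium markers fell and 0 rose, with sums of 31909.9 to 32881 in control and 13293 to 17167 in deficient samples. None of these markers was at 0. The collagen genes Col1a1, Col1a2 and Col3a1 made up most of the mesenchyme sums, with means of 49721.9, 48235.5 and 76720.5 in the Rptor controls. Col1a1, a fibrillar collagen of mesenchyme, rose by 1.14 and Dcn, a matrix proteoglycan, by 1.44 on the log2 scale. The 4 mesenchyme markers that did not pass were the lung mesenchyme factor Tbx4 at -0.037, Tbx5 at 0.025, Foxf1 at 0.12 and Twist1 at 1.04. Cdh1, the epithelial cadherin, fell by 1.89, Epcam by 0.77 and Nkx2-1 by 0.85. In the same line 4 of 5 mesothelium and 6 of 7 endothelium markers rose, 1 of 6 airway smooth muscle markers rose and 4 fell, and 2 of 3 cartilage markers tested fell. Of 3 blood and macrophage markers tested 2 rose, Csf1r, the receptor that marks macrophages, by 0.93 ± 0.072 (SE; adjusted p = 8.83e-05, limma) and Ptprc, the leukocyte antigen CD45, by 0.77 ± 0.15 (SE; adjusted p = 0.00533, limma) on the log2 scale, and 0 of 5 markers of neurons and glia tested passed, with 0 at an unadjusted p below 0.05. In the Tfam line 0 of 12 mesenchyme markers passed and 4 of 10 epithelium markers fell, and in the Cox10 line 0 of 12 and 1 of 10. Of 6 airway smooth muscle markers 4 fell in the Tfam line, among them Myh11 at -0.84 (limma adjusted p = 6.33e-05). In the Cox10 line 0 of these 6 passed, with 5 at an unadjusted p below 0.05. Of 3 cartilage markers tested 1 fell in the Tfam line, Col2a1 at -0.72 (limma adjusted p = 0.00595). Taken against the mean log2 value of the mesenchyme list in the same sample, the changes in the Rptor line were 0.18 for Gas1 (limma adjusted p = 0.128), -0.043 for Cdon (limma adjusted p = 0.727) and -0.062 for Boc (limma adjusted p = 0.568), none of which passed. The other 5 members were lower on this scale and passed, from -0.63 for Sufu to -0.38 for Disp1, as did 77.5% of all genes (79.5% in either direction). On this scale 0 members passed in limma in the Tfam line and 0 in that of Cox10, where 5.47% and 2.37% of genes did, and 0 had an unadjusted p below 0.05 in either, as 17.6% and 12.2% of genes did. Over the 3 lines 4 members passed (Smo, Gli2, Gli3 and Sufu, all lower), against 75.3% of genes. The part of the tissue markers in the rise of the co-receptors was not tested.

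**Figure D4:**
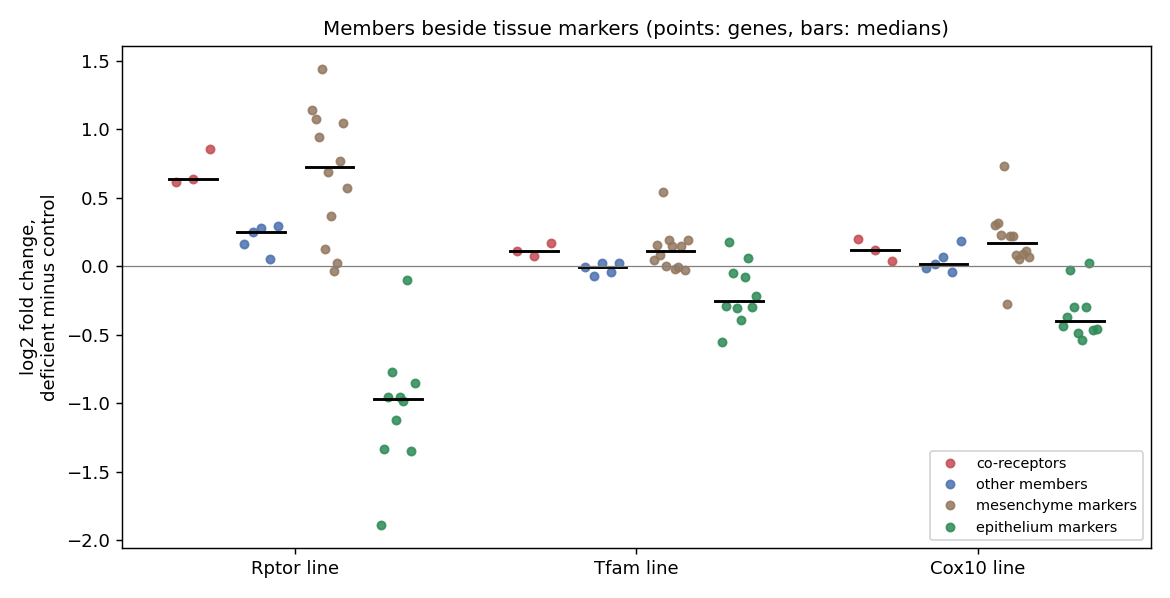
Log2 fold change between deficient and control lungs (vertical axis) of each co-receptor, each other member, 12 mesenchyme markers and 10 epithelium markers in the 3 lines (horizontal axis), with a bar at the median of each list. In the Rptor line the co-receptors lie within the range of the mesenchyme markers, the other members lie below most of them, and epithelium markers lie below 0.

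The rest of the pathway was described with a list of 44 genes, of which 43 were in the tables and 42 were tested. In the Rptor line 6 rose and 4 fell (16.6% and 18.2% of all genes), in the Tfam line 0 rose and 3 fell, and in the Cox10 line 0 passed in limma with 8 of the 42 at an unadjusted p below 0.05. Of all genes 4.66% passed in the Tfam line, and 0.475% passed in the Cox10 line with 13% at an unadjusted p below 0.05. Those with the largest changes in the Rptor line help ligand to reach or bind the receiving cell. Lrp2, a large endocytic receptor that binds Shh, went from 360.2 ± 48.4 to 868 ± 54.8 (SD, n = 3 each), with a change of 1.27 ± 0.11 (SE; adjusted p = 0.000151, limma) on the log2 scale. Scube3 went from 365 ± 27.6 to 848 ± 95.1 (SD, n = 3 each), a change of 1.21 ± 0.10 (SE; adjusted p = 0.000151, limma) on that scale. Scube2 and Scube1, further secreted proteins that help free the ligand with Disp1, had log2 fold changes of 1.22 ± 0.19 (SE; adjusted p = 0.00212, limma) and 1.20 ± 0.18 (SE; adjusted p = 0.0017, limma). Thus 3 of 7 ligand handling genes tested rose in that line, and 2 of 9 genes listed as co-receptor like or membrane, Lrp2 and the glypican Gpc3. The change of Gpc3 was 0.38 ± 0.092 (SE; adjusted p = 0.0141, limma), and it was named here after its value was seen. The list of 9 does not separate genes that help the pathway from genes that restrain it. Of the receptor and target genes Hhip, Ptch1 and Gli1, 0 rose in any line. Hhip, which traps ligand at the membrane, fell by 0.36 in the Rptor line and by 0.66 in Tfam-deficient lungs, and had a change of -0.39 in the Cox10 line that did not pass the threshold. Gli1 did not pass in any line, with -0.12 in the Rptor, -0.28 in the Tfam and -0.099 in the Cox10 line. The ligand gene Shh fell by 0.23 ± 0.069 (SE; adjusted p = 0.0303, limma) in Rptor-deficient and by 0.70 ± 0.099 (SE; adjusted p = 0.0022, limma) in Tfam-deficient lungs, and its change in Cox10-deficient lungs was -0.70 ± 0.16 (SE; adjusted p = 0.134, limma). The calls for Hhip and Shh were each lost in the Rptor line in 4 of the 6 fits that left out a sample (Hhip without control replicate 1 or 2 or deficient replicate 2 or 3, Shh without any control replicate or deficient replicate 3), with limma adjusted p up to 0.108 and 0.0914.

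Per kilobase of exon, Smo was the most abundant member in every group. In the controls it had 1473 ± 26.0 normalised reads per kilobase in the Rptor, 1548 ± 58.4 in the Tfam and 1750.2 ± 41.8 in the Cox10 line (SD, n = 3 each). Boc came next in the Rptor and Tfam controls with 807 ± 62.8 and 871 ± 30.3, and Gas1 followed with 599 ± 50.8 and 774 ± 59.3 (SD, n = 3 each). In the Cox10 controls Gas1 had 997 ± 93.1 and Boc 855 ± 53.9 (SD, n = 3 each), a gap of the size of their spread. Cdon was lower than both, at 193 ± 14.2, 244 ± 18.4 and 239 ± 54.3 in the Rptor, Tfam and Cox10 controls (SD, n = 3 each), near the levels of Sufu at 195 ± 4.51, 188 ± 12.6 and 228 ± 1.62 (SD, n = 3 each). Gli3 and Gli2 stood between, at 389 ± 22.6 and 276 ± 1.67 in the Rptor controls, and Disp1 was lowest there at 158 ± 8.32 (SD, n = 3 each). In the Tfam controls Gli2 was above Gli3 and Sufu was lowest, with Gli2 and Gli3 apart by about their spread. In Rptor-deficient lungs Gas1 reached 1087 ± 127, close to Boc at 1237 ± 49.4, and Cdon reached 301 ± 44.3 (SD, n = 3 each), close to Gli2 and above Sufu. Lines were scaled in separate tables, so that levels are side by side and differences between lines in the controls were not tested.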

How the data were processed

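Whole-lung RNA-seq was analysed from 18 samples in 6 groups of 3, grouped by their titles. Per the submitters' processing notes, reads were processed with Trim Galore, HISAT2 and featureCounts and scaled with DESeq2 on mm10, and versions are not given in the sources used here. The authors deposited, for each line in a table of its own, a signal that is the read count of a gene over a size factor for its library. In each sample 100% of values were whole multiples of a step (tolerance 0.01) of 0.978 to 1.02, so that a value is close to the number of reads and the total of 27727200 to 29611100 close to the depth. The tables also hold the authors' log2 fold changes, p-values and adjusted p-values, which were not used. No interval for counting error was needed, since each value was compared over replicates.

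Values were analysed as log2(value + 1), which understates the fold change of low genes. Genes were tested in a line where 3 or more of its 6 samples reached a value of 10. Each line was fitted in limma 3.58.1 (R 4.3.3; lmFit, eBayes with trend), genotype as the only term, and two-sided p-values received a Benjamini-Hochberg adjustment over all genes tested, with a threshold of 0.05. Differences between lines and the mean effect came from a fit of 18 samples with 6 groups over 14550 genes. Ratios subtracted the log2 value of Ptch1, or the mean over 12 mesenchyme markers, in the same sample. All genes then share the error of Ptch1 (or of the list). An exact permutation of samples for the ratios to Ptch1 was added after seeing the data. It does not remove the shared Ptch1 term, and it exchanges samples freely within a line, without regard to replicate numbers. A count test on recovered reads had been foreseen and was not run.

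Same-numbered samples of the Rptor line deviated together from their group means (correlations of 0.221, 0.330 and 0.259, each above 0.1). The labels state no pairing, and the main fits left the replicate numbers out. Pairing by number entered only through the replicate block, given as an alternative. Not every correlation was above 0.1 in the Tfam (-0.312, -0.207 and 0.151) and Cox10 lines (0.447, 0.202 and 0.0488). The text names all 8 members, Ptch1, Hhip, Gli1 and Shh, the 5 pathway genes with the largest change past the threshold in a line, and, for each member, the 3 genes with the most similar pattern, while 1 further pathway gene was left out of the list and is not reported here. The members, lists, named genes and tests were chosen with earlier results of these data known. Exon lengths and positions came from GENCODE vM21 and promoters from RefSeq. The limma script recovered known changes in simulated data without sample pairing. The planted changes were larger than those of most members, so the recovery of smaller changes was not tested. Alternatives were other scalings (TMM with 30% of M and 5% of A trimmed and coded from its definition on the deposited values, not taken from a package on recovered reads, library totals), filters (none, a mean of 50), a pseudocount of 0.1, a joint fit, the block, a shorter mesenchyme list, and leaving out each sample.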

Additional observations from a re-analysis of the deposited data

Results flagged for a closer look

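The size of the change differed between lines for the members Gas1 and Boc and for 4 other genes of the pathway, by a test of the difference itself. Those 4 had been picked from the pathway list for their large changes in the Rptor line, so the test is not independent of their choice. Of all 14550 genes 11.2% passed against the Tfam line and 7.48% against the Cox10 line. For Gas1 the effect in the Rptor line exceeded that in the Tfam line by 0.69 and that in the Cox10 line by 0.82 on the log2 scale, and for Boc by 0.51 and 0.42. Among the genes that handle or bind ligand, Lrp2 exceeded by 0.93 ± 0.18 (SE; adjusted p = 0.00308, limma) and 1.01 ± 0.18 (SE; adjusted p = 0.00187, limma), and Scube3 by 0.95 ± 0.14 (SE; adjusted p = 0.000565, limma) and 0.89 ± 0.14 (SE; adjusted p = 0.00101, limma). Against the Tfam line alone, Scube2 differed by 1.08 ± 0.28 (SE; adjusted p = 0.0211, limma) and Gpc3 by 0.36 ± 0.11 (SE; adjusted p = 0.0422, limma). The call for Scube2 was lost without control replicate 2 or deficient replicate 2 or 3 of the Tfam line (limma adjusted p up to 0.0576). That for Gpc3 was lost in 9 of 18 fits that left out a sample: without Rptor control replicate 1 or 2, Rptor deficient replicate 1, any Tfam control replicate, Tfam deficient replicate 2 or 3, or Cox10 control replicate 3 (limma adjusted p up to 0.109). Against the Cox10 line Scube2 differed by 0.67 ± 0.28 (SE; adjusted p = 0.165, limma) and Gpc3 by 0.36 ± 0.11 (SE; adjusted p = 0.0518, limma), and neither passed. Scube1 differed by 1.35 ± 0.43 (SE; adjusted p = 0.0512, limma) from the Tfam and by 1.18 ± 0.43 (SE; adjusted p = 0.105, limma) from the Cox10 line, neither past the threshold. With the replicate block in all lines Scube1 passed against both (limma adjusted p = 0.00875 and 0.0207) and Gpc3 against the Cox10 line (limma adjusted p = 0.0344). The difference of Scube1 from the Tfam line also passed in 6 of 18 fits that left out a sample, and that from the Cox10 line in 2, as did that of Gpc3 from the Cox10 line in 3. Epithelium markers fell and mesenchyme markers rose in the Rptor line at the same time, and their part in these differences was not tested.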

How the results depend on the processing

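Gas1, Boc and Cdon passed in the Rptor line, and Gas1 and Boc in its differences from both other lines, under every alternative, with log2 fold changes without a sample of 0.77 to 0.93, 0.56 to 0.67 and 0.52 to 0.72. The counts of members past the threshold were 3 to 5 in the Rptor line when a sample was left out, 4 to 5 for the mean effect, and 0 throughout for the Tfam and Cox10 lines. Gli2 in the Rptor line also passed when scaled to the library total (limma adjusted p = 0.0449) and Gli3 in the fit of all 18 samples (0.0266), and Disp1 did not without a filter (0.0549). Ptch1 in the Tfam line also lost its call without a filter (limma adjusted p = 0.0559). With the replicate block over all lines, the difference of Cdon between the Rptor and Tfam lines passed (limma adjusted p = 0.0368), as did the mean effect of Gli3 (0.0298), Gli1 in the Tfam line (0.0213) and the mean effect of Disp1 relative to mesenchyme (0.0313). Relative to Ptch1 the block ended the calls of Smo in the Rptor line (0.0769) and of Smo and Sufu in the Tfam line (0.0574 and 0.0698). Apart from Gli2 and Gli3 in the Rptor line, it changed no other call of a member. In the fit of 18 samples Shh in the Rptor line and Ptch1 in the Tfam line lost their calls, and Shh and Hhip in the Cox10 line gained them.

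Relative to Ptch1, the counts of 7, 7 and 8 members in the Rptor, Tfam and Cox10 lines fell to 0, 0 and 0 by the exact permutation of samples, in which 3 samples against 3 cannot pass, and ranged over 3 to 8, 0 to 8 and 0 to 8 when a sample was left out. They moved most without a control replicate or deficient replicate 2 of the Rptor line, control replicate 1 or 2 or deficient replicate 1 or 3 of the Tfam line, and control replicate 2 or 3 or deficient replicate 1 of the Cox10 line. Over the lines all 8 passed in each such fit. Relative to mesenchyme the mean over lines passed for 3 to 5.

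Values near 0 changed sign. Scaled to the library total, Smo was 0.0061 in the Tfam and 0.00068 in the Cox10 line and the mean effect of Sufu 0.00061. With a mesenchyme list without Foxf1 and Pdgfra, Boc and Disp1 in the Cox10 line were -0.024 and -0.038 and the mean effect of Gas1 -0.0061. When a sample was left out, values in the Tfam line ranged over Cdon -0.015 to 0.15, Smo -0.036 to 0.015, Gli2 -0.15 to 0.0070, Gli3 -0.039 to 0.070, Sufu -0.093 to 0.0042, Disp1 -0.064 to 0.074 and Gpc3 -0.020 to 0.044, and in the Cox10 line over Cdon -0.049 to 0.28, Gas1 -0.038 to 0.15, Smo -0.051 to 0.024, Gli2 -0.045 to 0.13, Sufu -0.086 to 0.034, Scube1 -0.39 to 0.34 and Gpc3 -0.043 to 0.049. Gli1 in the Rptor line ranged over -0.21 to 0.014 and the mean effect of Sufu over -0.028 to 0.015. Differences of the Tfam from the Cox10 line ranged over Cdon -0.21 to 0.13, Smo -0.029 to 0.046, Gli3 -0.11 to 0.0022 and Sufu -0.076 to 0.048, and those of Ptch1 between the Rptor and the Tfam line over -0.030 to 0.23 and between the Rptor and the Cox10 line over -0.0049 to 0.26. Relative to mesenchyme, Cdon ranged over -0.12 to 0.013 in the Rptor line and Boc over -0.044 to 0.018 in the Tfam line. In the Cox10 line the ranges were Boc -0.035 to 0.055, Cdon -0.19 to 0.12, Gas1 -0.27 to 0.020, Gli3 -0.24 to 0.011 and Disp1 -0.12 to 0.12, and over the lines -0.092 to 0.0095 for Cdon and -0.014 to 0.082 for Gas1. Apart from the changes shown by their construction, the cause was not tested. Count tests on recovered reads were not run. With 3 samples a group, small changes of Sufu, Gli2 or Gli3 could not be told from none in the main fits of each line. Gli2 and Gli3 in the Rptor line passed under some of the alternatives given above.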

Other observations

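Genes with a pattern like that of a co-receptor were listed by Pearson r over the 18 samples, each line centred on its controls, among 12947 genes with a mean of at least 50. The values describe shared libraries and a shared group, and r is also given over the 12 samples of the other 2 lines. For Gas1 the nearest genes were Bnc1 (r = 0.985, and 0.935 without the Rptor line), Adamts15 (r = 0.984, and 0.923 without the Rptor line), Itgb5 (r = 0.978, and 0.822 without the Rptor line). For Boc they were Cd300a (r = 0.983, and 0.907 without the Rptor line), Akap12 (r = 0.982, and 0.925 without the Rptor line), Axl (r = 0.977, and 0.873 without the Rptor line), and for Cdon Igfbp5 (r = 0.968, and 0.924 without the Rptor line), Mmp16 (r = 0.964, and 0.912 without the Rptor line), Tenm2 (r = 0.963, and 0.953 without the Rptor line). Bnc1 is a zinc-finger factor known from mesothelium and Igfbp5 encodes a secreted binding protein of insulin-like growth factors. For Smo the highest r, with Fbxo46, was 0.876, and 0.341 without the Rptor line, a likeness that was weaker in the other 2 lines. Next to it came Fzd7 (r = 0.869, and 0.422 without the Rptor line) and Cacng4 (r = 0.868, and 0.460 without the Rptor line). The genes nearest to the other members were Abl1, Zfp423 and Asap1 for Gli2, Trio, Map3k1 and 2410089E03Rik for Gli3, Ssbp3, Abr and B4galt6 for Sufu, and Ksr1, Gata5 and Hoxa3 for Disp1, with r from 0.884 to 0.980, and from 0.853 to 0.969 without the Rptor line.

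The control lungs of the 3 tables stood at different levels of some members. Gli2 had a mean normalised read count of 1895 ± 11.5 in Rptor, 2973 ± 280.4 in Tfam and 2571 ± 54.2 in Cox10 controls (SD, n = 3 each). Gas1 had 1772 ± 150.3, 2291 ± 176 and 2952 ± 276 in the same order (SD, n = 3 each), so that the Cox10 controls stood near the Rptor-deficient lungs at 3219 ± 376. The controls differ in the floxed gene and in the table they were scaled in, which cannot be told apart, and no test was made.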
